A study of Mus musculus with 3 samples.

Results

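On 13 mouse chromosomes, the occupancy list of tagged BCL11A held no dense block of peaks, and the 241 scattered peaks on these chromosomes are described here. They are all peaks on chromosomes 1, 2, 4, 5, 6, 7, 10, 11, 13, 16, 17, 18 and X, of any score or width, out of 2370 peaks in the whole list. The chromosomes were chosen by peak position: none carries a run of 20 or more peaks in which each centre is within 250 kb of the next. The longest run on them had 12 peaks, and the shortest dense run on the 7 other chromosomes with peaks had 33. Because the peaks' own positions chose the members, counts and densities below are a description and no test is attached to them.

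The peaks come from MEL cells, a line of mouse erythroleukemia with features of young erythroid precursors. The clones carried FLAG- and biotin-tagged BCL11A and also BirA, an enzyme from bacteria that attaches the biotin. Cells were grown at 37 °C with 10% serum and fixed for 5 min in 1% formaldehyde, and chromatin was captured on streptavidin beads with no antibody. The labels name 3 samples with no replicate: the tagged line, cells with BirA alone and input DNA. Only the peak list of the tagged line was used, so no value here has an error between samples, and none is set against a control. The number of clones used is not stated.

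BCL11A is a zinc-finger repressor that keeps embryonic and fetal globin genes silent in adult erythroid cells. It works with the NuRD complex, which removes acetyl groups from histones and remodels nucleosomes, and with other corepressors. In this role it acts alongside SOX6, another silencer of embryonic globin genes, and GATA1, the master regulator of erythroid genes. In the mouse the beta-like globin genes lie together on chromosome 7 and the alpha-like genes on chromosome 11, so both globin loci fall on chromosomes of this set.

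The scattered peaks were few for the length of DNA they lie on. The 13 chromosomes make up 68.3% of the mm9 chromosome length and held 10.2% of the peaks. Their density was 0.133 peaks per Mb, against 2.58 per Mb on the 7 other chromosomes. Counting only peaks outside dense runs, the other chromosomes held 0.420 per Mb of their full length. Chromosome 5 was the fullest, with 58 peaks (0.380 per Mb), followed by chromosome 1 with 32 (0.162 per Mb) and chromosome X with 31 (0.186 per Mb). These 3 chromosomes held 121 of the 241 peaks. The other 10 held 5 to 19 peaks each, 120 in all, and the sparsest was chromosome 16 with 5 peaks, or 1 in 19.7 Mb. The nearest chromosome on the other side of the rule, chromosome 14, had 0.743 peaks per Mb.

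**Figure D1:**
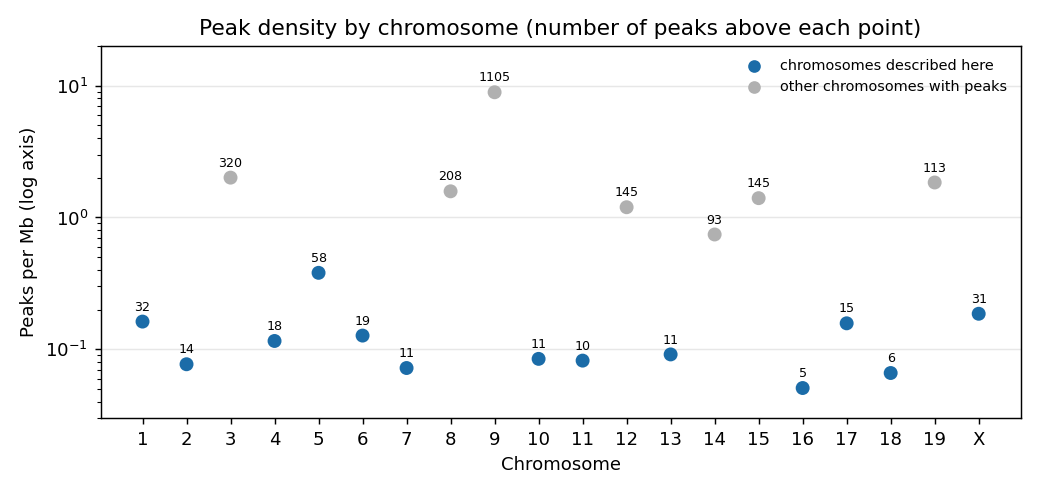
Peaks per Mb of mm9 chromosome length (log axis) for the 20 chromosomes with peaks, with the number of peaks above each point. The 13 chromosomes described here, in blue, lie between 0.0509 and 0.380 per Mb, and the 7 others, in grey, between 0.743 and 8.91.

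Long stretches of these chromosomes held no peak. On chromosome 1, no peak lay in the 66.4 Mb between 14051785 and 80427093. Chromosome X had an empty stretch of 51.5 Mb and chromosome 16 one of 47.5 Mb. Such stretches were not particular to these chromosomes. Among those with dense runs, the longest were 51.9 Mb on chromosome 14, 46.9 Mb on chromosome 9 and 46.6 Mb on chromosome 8. On chromosome 10 the first peak started at 51918075, on chromosome 7 at 46514918, on chromosome 18 at 32702924 and on chromosome 6 at 32143953. Whether sequence that cannot be mapped lies in these stretches was not analysed here.

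On chromosome 7, the home of the beta-like globin genes (embryonic Hbb-y and Hbb-bh1, adult Hbb-bs and Hbb-bt) and of the silencer Sox6, 11 peaks were spread between 46514918 and 125000229. No peak lay nearer to either end of the chromosome. From the proximal end, the first lay at 46514918 to 46515521 with the authors' score at 56.43, followed by 56434759 to 56435400 (score 52.04) and 62551636 to 62552494 (score 65.46). The peak at 71689335 to 71690032 had the lowest score of the chromosome, 50.12, and after it 23.7 Mb held none. The next 3 lay closer together, at 95436652 to 95437253 (score 64.55), 95549743 to 95550276 (score 60.21) and 97104607 to 97105056 (score 66.67, the highest of the chromosome). The last 4 were at 109156902 to 109157643 (score 54.15), 110878608 to 110879255 (score 61.47), 116867216 to 116867806 (score 56.34) and 124999599 to 125000229 (score 53.87). All 11 therefore scored between 50.12 and 66.67, with 5 at 60 or more, and the nearest peak was at a median of 5.99 Mb.

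On chromosome 11, with the embryonic Hba-x, the adult alpha-globin pair Hba-a1 and Hba-a2, and the Bcl11a gene, the 10 peaks had a slightly lower median score and were further apart. The proximal 3 lay at 12856323 to 12856696 (score 50.37), 29165873 to 29166477 (score 52.66) and 49751682 to 49752364 (score 50.92). After an empty stretch of 24.5 Mb came 74278312 to 74279112 (score 60.84), 79483851 to 79484342 (score 62.82, the highest), 80412553 to 80413240 (score 57.68) and 82185635 to 82186193 (score 55.63). The distal 3 were 94127790 to 94128333 (score 53.64), 105619877 to 105620671 (score 58.64) and 121470307 to 121470982 (score 51.30). The median scores of chromosomes 7 and 11 were 56.4 and 54.6, and their scores overlapped along nearly the whole range. On chromosome 11 the nearest peak was at a median of 11.5 Mb. The gene table at hand is for assembly GRCm38.p6 and the peaks are in mm9, so no peak is assigned to a gene here, and only the chromosome of each gene was taken from the table.

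These sparse chromosomes make up 68.3% of the total length. Of 49 genes listed for this work, with the globin genes counted, 36 lie on them (73.5%, near that share of length). The list joins globin genes and their regulators, BCL11A partners, haem synthesis and red cell membrane genes. The share of all genes that lie on these chromosomes was not counted, so length is the only base here. By list, the shares were 73.3% for globin regulators, 58.3% for partners, 87.5% for haem synthesis and 57.1% for the membrane. Of 15 regulators of globin and erythroid genes, 11 do: besides Bcl11a and Sox6, these are Myb and Zbtb7a (chromosome 10, 11 peaks), Gata1 (chromosome X, 31 peaks), Tal1 (chromosome 4, 18 peaks), Gata2 (chromosome 6, 19 peaks), Lmo2 and Gfi1b (chromosome 2, 14 peaks), Runx1 (chromosome 16, 5 peaks) and Ikzf1 (chromosome 11). Of 12 genes for partners of BCL11A, 7 do, among them Chd4, the remodelling ATPase of NuRD (chromosome 6), and Hdac1 and Hdac2, its histone deacetylases (chromosomes 4 and 10). Of 8 enzymes of haem synthesis, 7 do, including Alas2, the erythroid form of the first enzyme of the pathway (chromosome X). Of 7 red cell membrane genes, 4 do, including Slc4a1, the anion exchanger band 3 (chromosome 11). These are counts by chromosome and say nothing of a peak at a gene.

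Scores were low and close together. The median was 54.84 (95% order-statistic interval 53.81 to 55.87), with quartiles at 51.97 and 60.06 and a range of 50.12 to 152.16. Intervals here take peaks as independent, which neighbouring peaks are not. The lowest score in the whole list is 50, and 61 members scored under 52. Scores of 60 or more were reached by 61 of 241 peaks (25.3%), against 48.3% of all peaks in the list, and scores over 100 by 5 (2.07%), against 10.0% of the list. Among the 347 peaks outside dense runs on the other chromosomes, these shares were 26.8% and 1.44%, close to those of the members. The members next to 60 on either side were at 59.65 and 60.06. Medians by chromosome ran from 51.85 on chromosome 13 to 59.01 on chromosome 17. On chromosome 2, 13 of 14 peaks were under 60, on chromosome 13, 10 of 11, and on chromosome 16, all 5.

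**Figure D2:**
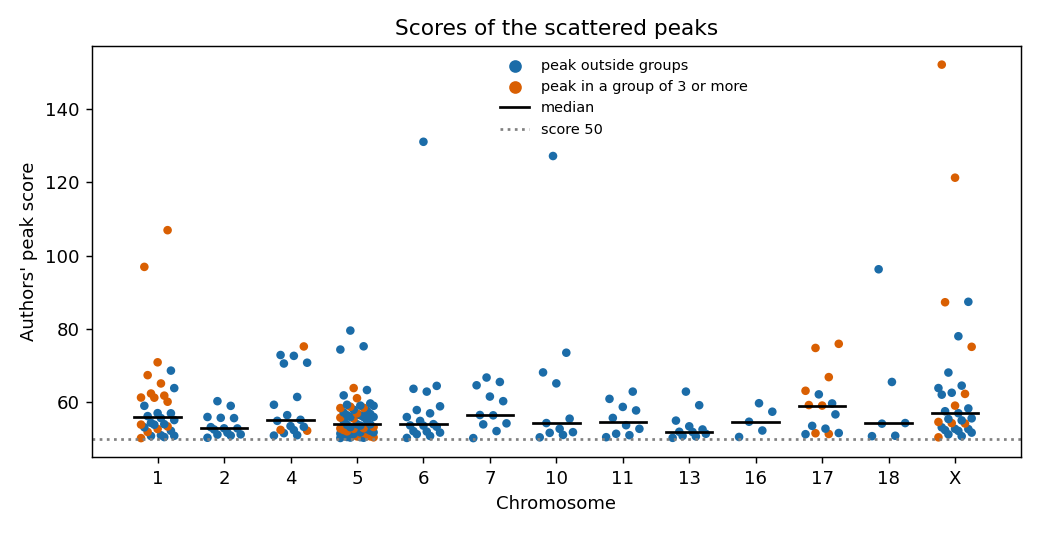
The authors' score of each of the 241 peaks by chromosome, with medians as black bars and the score of 50 dotted. Most points sit between 50 and 60 on every chromosome, and the 5 over 100 lie on chromosomes 1, 6, 10 and X.

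The 10 highest scores lay on 6 chromosomes. The highest, 152.16, was on chromosome X at 162800433 to 162801725 and ranked 41 in the whole list. The next, 131.08, was on chromosome 6 (47596469 to 47597657), where no other peak lay within 4 Mb. A peak of only 221 bp on chromosome 10, (113964532 to 113964752), scored 127.19. Chromosome X at 162830196 to 162831679 scored 121.27, and chromosome 1 at 94391557 to 94392588 scored 106.93 and at 108499112 to 108500513 scored 96.90. Chromosome 18 had 1 high peak, at 64614167 to 64614852, with 96.25, while its other 5 scored 65.46 or less. The remaining 3 were chromosome X at 112364357 to 112364754 (87.36) and 162825670 to 162826466 (87.24), and chromosome 5 at 30747401 to 30748178 (79.50). Of these 10 peaks, 5 belonged to the small groups described below and 5 stood outside them.

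On the other chromosomes the highest scores were lower. They were 75.88 on chromosome 17 (30914705 to 30915759), 75.16 on chromosome 4 (138818214 to 138818798), 62.82 on chromosome 13 (17291864 to 17292362), 60.21 on chromosome 2 (53585901 to 53586568) and 59.65 on chromosome 16 (96915277 to 96915953). The highest score of chromosome 16 was thus close to the median of the whole list, 59.4.

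Widths were as uniform as scores. The median was 678 bp (order-statistic interval 662 to 685), the quartiles were 624 and 727 bp, and 127 peaks (52.7%) measured at least 600 and under 700 bp. Those 127 had a median score of 52.66. Across members, score and width were nearly unrelated, with a Spearman rho of 0.044 over 241 peaks, given as a description because the peaks share their library and the caller's threshold. The value differed with width. Among members under 700 bp, rho was -0.474, while the 11 members over 1000 bp had a median score of 75.88. These values are partly set by the score itself. In the formula given next, which most members matched, score falls with width at a fixed count. There a count of 10 reaches the lowest score of the list only up to 700 bp, so wider peaks need higher counts.

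For most members the score could be written as a function of the width and of a whole number. Many peaks of equal width had exactly the same score: 3 members of 685 bp scored 50.81, and 3 of 689 bp scored 50.59. For 149 of the 241 members (61.8%), the score equalled -10 times the log10 of a Poisson probability of at least a whole number of events, with a mean of 2.37 events per kb times the width plus 1 bp, to within 0.0055 score units. The rate was fitted on the 2129 peaks of the other chromosomes, of which 918 matched, and was then applied to the members unchanged. At the median width of 678 bp the mean is 1.61 events, and counts of 9, 10 and 11 give scores of 43.2, 51.2 and 59.6, so neighbouring counts lie far apart compared with the tolerance. On this scale a score of 50 is a probability of 1e-05. The formula was found after seeing the data and is not stated in the sources used here, and whether the events are reads is not stated either.

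Read this way, most matched members rest on very few events. The implied count was 10 for 90 of the 149 and 11 for 38, together 85.9%, and 12 for 11. It was 13 or more for the remaining 10. A count of 10 has an exact Poisson interval of 4.80 to 18.4, for counting error only. If the probability were of more than, rather than at least, the count, every implied count would be lower by 1. The implied count over the mean had a median of 6.53-fold and ranged from 5.60- to 8.63-fold. A peak with a count of 10 reaches a score of 50 only up to 700 bp, and one with 11 up to 858 bp, and the matched members with these counts were at most 698 and 801 bp wide.

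**Figure D3:**
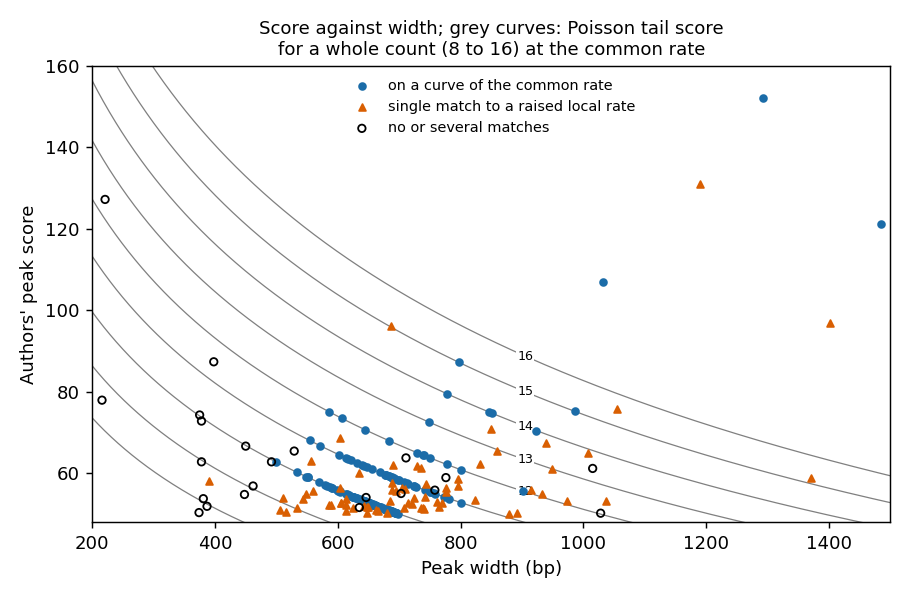
Score against width for the 241 peaks, with grey curves for whole counts of 8 to 16 at the common rate. Of the 149 blue points that match a whole count, most lie on the curves for 10 and 11, the 3 highest have counts of 19, 24 and 26 whose curves are not drawn, and orange triangles and open circles mark the 92 peaks that do not.

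Where they matched the common rate, peaks of the globin chromosomes had the same small counts. On chromosome 7, 6 of 11 peaks matched the common rate, 4 with a count of 10 and 2 with 11. The peak at 110878608 to 110879255 was 1 of the latter, at 7.14-fold over its mean of 1.54 events. On chromosome 11, 3 of 10 matched, 2 with a count of 10 and 1, at 74278312 to 74279112, with 12. A difference of 1 event moves a peak of 678 bp by 8.40 score units, and the common rate gives no count for the other 5 peaks of chromosome 7 and the other 7 of chromosome 11, the highest-scoring of each among them.

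Groups were taken as runs of 3 or more peaks in which each centre is within 250 kb of the next, and the 2 largest lay on chromosomes X and 1. On chromosome X, 10 peaks lay within 59.4 kb, from 162787194 to 162846605. In order, they scored 75.06, 54.53, 50.33, 152.16, 54.22, 87.24, 121.27, 58.99, 62.20 and 54.11. Of these, 3 (152.16, 121.27 and 87.24) were above all the others. All 10 matched the common rate, with implied counts of 10 to 26. The highest peak had 26 events against a mean of 3.07 (8.47-fold), and that at 121.27, the widest of all members at 1484 bp, had 24 against 3.52 (6.81-fold). Peaks covered 14.5% of the group's span, and the smallest space between edges was 112 bp.

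On chromosome 1, 12 peaks lay within 223 kb, from 108304830 to 108527614. Their scores were more even, with a median of 61.2 and 8 of 12 at 60 or more, and the highest was 96.90 at 108499112 to 108500513, a peak of 1402 bp. The lowest was 50.12. Only 1 of the 12 matched the common rate, whereas in the group on chromosome X all 10 did. For 10 of the other 11, the score instead matched a single pair of a whole count and a raised local rate, 1.08 to 1.89 times the common rate, by the search given in the closing section. Peaks covered 4.86% of this span.

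**Figure D4:**
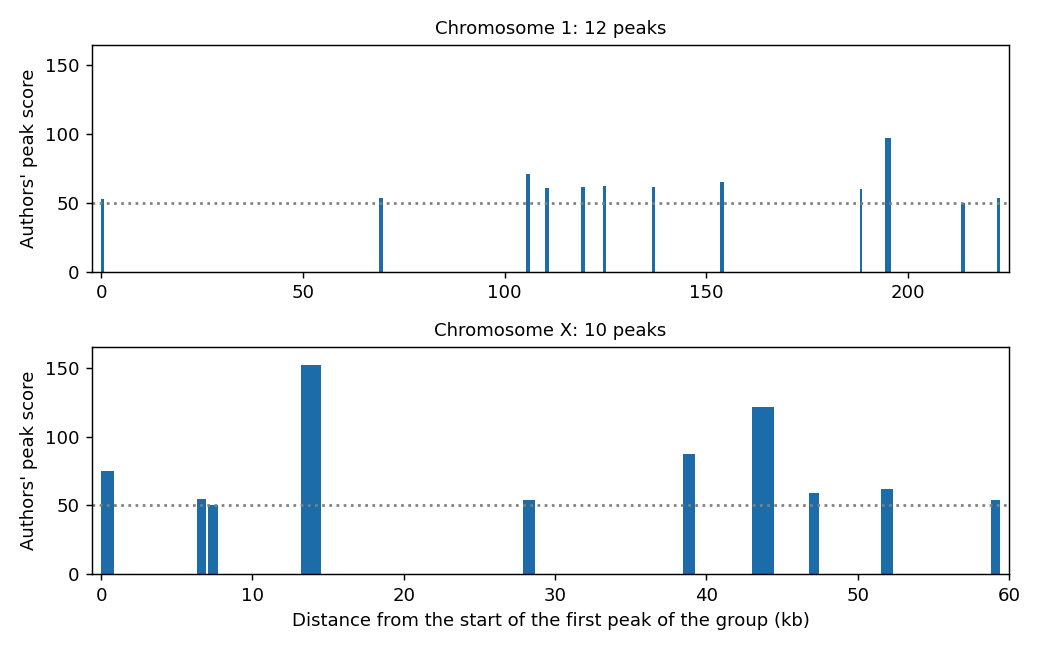
Score of each peak in the 2 largest groups against the distance from the start of the first peak, in kb, with bars as wide as the peaks and the score of 50 dotted. On chromosome X, 3 peaks exceed 87 among low ones, while on chromosome 1 a single peak exceeds 75.

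Another 9 groups were smaller, with 3 to 5 peaks each, and most had low scores. The tightest was on chromosome 1, where 3 peaks lay within 4 kb from 94388589 to 94392588, the last of them with 106.93 and the others with 67.32 and 51.80. Chromosome 17 had 5 peaks from 30617807 to 31053116, with a median score of 66.8 and 4 of 5 at 60 or more, and 3 peaks from 26066730 to 26131151, which scored 59.15 or less. Chromosome 4 had 3 peaks from 138818214 to 139007896, with 75.16 as the highest. Chromosome 5 had 5 groups: 28245689 to 28668141 (4 peaks, highest score 58.69, at 28245689 to 28246381), 31975793 to 32215592 (3 peaks, highest 55.45, at 31975793 to 31976542), 33884981 to 33911693 (3 peaks, highest 51.97, at 33911030 to 33911693), 36833519 to 36971684 (4 peaks, highest 61.02, at 36833519 to 36834173) and 37543844 to 37989419 (5 peaks, highest 63.79, at 37850946 to 37851695). The groups of chromosome 5 therefore had many neighbours but scores near the median of all members.

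On several chromosomes the peaks were concentrated in part of the length. Between 20 and 50 Mb, chromosome 5 held 38 of its 58 peaks (65.5%), or 1.27 per Mb, and 23 of these lay between 30 and 40 Mb (2.30 per Mb). Beyond 50 Mb it held 17 peaks, or 0.167 per Mb, close to the density of the 13 chromosomes as a whole. The peaks between 30 and 40 Mb had a median score of 53.11, and 16 of 23 matched the common rate. The bounds of these stretches were chosen after seeing the positions. Chromosome 1 showed a like concentration, with 24 of 32 peaks between 90 and 120 Mb (0.800 per Mb) and 4 beyond 120 Mb. On chromosome 17, 11 of 15 lay between 26 and 37 Mb. On chromosome X, 14 of 31 lay between 100 and 140 Mb, and 1 between 50 and 100 Mb.

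With each chromosome cut into 5 equal lengths from the proximal end, these held 28, 62, 52, 47 and 52 members. The second length held 25.7%, but 28 of its 62 peaks were those of chromosome 5, and without that chromosome the counts were 15, 34, 49, 43 and 42. The first length was the lowest in both.

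Most members had no close neighbour. Of the 241, 154 (63.9%) had none within 250 kb, 32 formed 16 pairs and 55 lay in the 11 groups. The nearest peak was at a median of 907 kb, and for 113 peaks (46.9%) it was over 1 Mb. A neighbour within 10 kb was found for 26 members (10.8%), and all 26 were in the groups. Peaks in groups had a median score of 58.3 and a median width of 714 bp, and the 186 outside groups had 54.3 and 666.5 bp. Of the 5 scores over 100, 3 were in groups. The rule for groups uses position only, but score and width differed with position in this list. On the other chromosomes, medians were 62.5 and 848 bp inside dense runs and 55.45 and 689 bp outside them. For members in and outside groups, order-statistic intervals of the median score overlapped (53.3 to 61.16 and 53.54 to 55.58). Those of the median width did not (688 to 773 and 652 to 679 bp). The largest groups, on chromosomes 1 and X, held 12 and 10 of the 55 grouped peaks. Peaks of 1 library are not replicates and these differences were not tested.

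The shortest peaks departed from the common pattern. Among the 10 members under 400 bp, on 7 chromosomes, scores ran from 50.37 to 127.19 with a median of 67.8, and 6 of 10 were at 60 or more. None of the 10 matched the common rate and none lay in a group. They were on chromosome X at 119098949 to 119099164 (216 bp, score 77.95), 53379792 to 53380181 (58.22) and 112364357 to 112364754 (87.36), and on chromosome 6 at 65368540 to 65368917 (62.82) and 64209601 to 64209987 (51.91). The others were on chromosome 10 at 113964532 to 113964752 (221 bp, 127.19), chromosome 11 at 12856323 to 12856696 (50.37), chromosome 5 at 17415572 to 17415946 (74.31), chromosome 4 at 91466874 to 91467251 (72.82) and chromosome 1 at 153388570 to 153388950 (53.78). The list as a whole holds 15 such peaks, so 10 of the 15 were on these chromosomes. Peaks inside dense runs were at least 437 bp wide, so all 15 lay outside such runs. Outside dense runs the list holds the 241 members and 347 peaks on the other chromosomes. These numbers, and not the share of all peaks, are the base for the 10 of 15, and the difference was not tested.

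At the other end, 11 members were wider than 1000 bp, of which 8 lay in groups. The 5 widest were the peaks of 1484 and 1293 bp on chromosome X and of 1402 bp on chromosome 1 already named, 1 of 1371 bp on chromosome 1 at 90116288 to 90117658, and that of 1189 bp on chromosome 6. Width did not ensure a high score: the peak of 1371 bp scored 58.94, while the other 4 scored 96.90 to 152.16.

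Set beside the 347 peaks that lie outside dense runs on the other 7 chromosomes, the members had close medians of score and width and a wider spacing, on which the rule itself bears. Those 347 peaks had a median score of 55.45 and a median width of 689 bp, against 54.84 and 678 bp. Of them 58.5% matched the common rate, against 61.8%, and 59.6% of the matched ones had a count of 10, against 60.4%. Their nearest peak was at a median of 106 kb, and that of the members at 907 kb. The 1782 peaks inside dense runs had a median score of 62.5 and a median width of 848 bp. The rho of score and width was 0.044 among the members, 0.221 among the 347 peaks and 0.690 inside dense runs. Inside dense runs, 40.1% of peaks matched the common rate, with counts of up to 51, and 36.4% of the matched ones had a count of 10. None of these differences was tested, since the peaks of 1 library are not replicates.

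**Figure D5:**
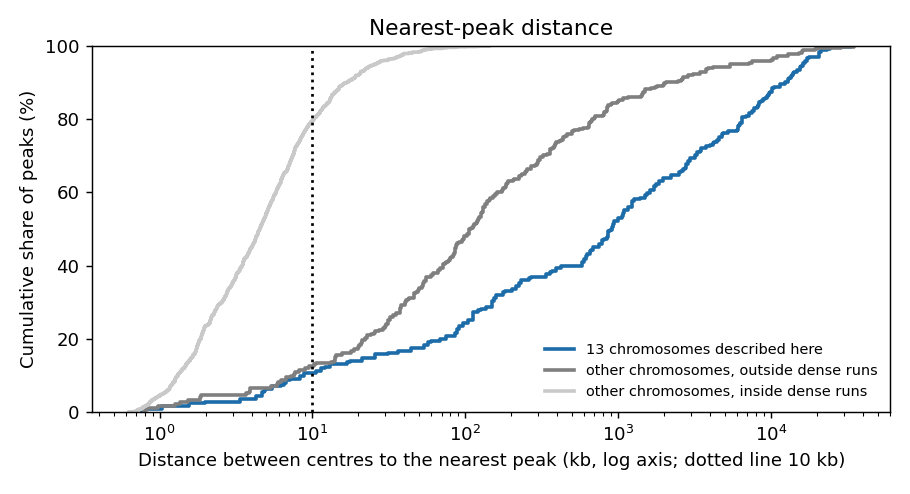
Cumulative share of peaks by distance to the nearest peak on the same chromosome (kb, log axis), with 10 kb dotted. The blue curve of the 241 scattered peaks passes 10 kb at 10.8%, the curve for the other chromosomes outside dense runs at 12.7% and the curve inside dense runs at 79.7%.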

How the data were processed

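The authors deposited peak intervals in BED form for the tagged BCL11A library, each with 1 score of no stated scale. Peaks were called with CisGenome, per the file header, and the build is mm9, per the submitters' processing notes. The aligner, settings, control, read depth and the meaning of "onES", "pcut5" and "only" in the track name are not stated in the labels or the header. The members, lists and rules were chosen with earlier results of these data known. Intervals are printed counting from 1. If the added 1 bp in the score formula reflects how intervals were written, starts may be 1 bp too high.

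Peaks named in the text are all on chromosomes 7 and 11, the 10 highest scores, the highest of each chromosome, the 5 widest, those under 400 bp, the groups with their highest peak, and those next to a score of 60 on either side. Others were chosen after their values were seen. Gene names (49 of 49 matched) come from RefSeq, GRCm38.p6. Intervals of medians are exact order-statistic intervals at 95%. The rate was fitted by grid search for the most matches. The fit was tested on simulated lists of 600 peaks and recovered the rate in 5 of 5. Part of each list was made from the same formula, so this checks the search and not whether the formula holds in these data. The mm9 chromosome lengths were entered by hand, and no peak end lay beyond them. No mm9 sequence or annotation was used, so gene distances, classes and motifs were not run. Python 3.11.15, numpy 2.4.6, pandas 2.3.3 and scipy 1.17.1 were used.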

Additional observations from a re-analysis of the deposited data

How the results depend on the processing

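Of 50 alternatives, 36 left the value within its interval or, for a count, within 1.5 times. Another 11 moved it further and 3 reversed its sign. Most of the 36 were medians of score or width with 1 of the 13 chromosomes left out. The members' share of all peaks (10.2%) was 5.33% among scores of 60 or more and 17.5% with peaks within 10 kb merged. Their median score was 65.46 and their median width 686 bp among scores of 60 or more, and the median score per bp of width was 0.0812. Both score values had to move: the first set holds no score under 60, and the score per bp is in another unit. Leaving out each of the 13 chromosomes gave medians of 54.26 to 54.95 and 670 to 678 bp. The rho of 0.044 turned to -0.0785 without the groups, and, in sets added after seeing the data, to -0.474 under 700 bp and -1 among members with a count of 10, where the formula itself fixes the order. The value of -0.0785 lies within the interval of the main rho, -0.0901 to 0.177. Groups numbered 7 with a gap of 100 kb and 3 among scores of 60 or more, in place of 11. A neighbour was present for 17.4% within 50 kb, and for 18.03% within 10 kb among scores of 60 or more. The second of the 5 equal lengths held 18.6% without chromosome 5, and 43.6% of members matched the common rate without the added 1 bp, both chosen after seeing the data. Other causes were not tested. Alternatives needing mm9 sequence or annotation were not run. No paired analysis was possible because no group has a second sample.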

Other observations

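The 92 members off the common rate were also searched for a higher local rate, allowed to be a whole multiple of 1 small unit up to 3 times the common rate, with counts from 7 to 45. The unit, 0.107 events per kb, was the one with the most matches on the other chromosomes. With it, 75 of the 92 matched at least 1 pair of count and rate and 70 matched exactly 1, against a median of 6 matched over all units scanned. Some pairs may therefore be coincidental. For the 70, the local rate ran from 1.03 to 2.65 times the common rate (median 1.23) and the count had a median of 12. With both searches, 17 of the 241 members were left without a match.

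Chromosomes differed in which rate their peaks matched. On chromosome X, 27 of 31 matched the common rate and 1 matched a single raised rate. On chromosome 1, 6 of 32 matched the common rate and 21 a single raised rate. On chromosome 11, these numbers were 3 and 5 of 10, and on chromosome 7, 6 and 4 of 11. The highest raised rate of any member, 2.65 times with a count of 21, was on chromosome 7 at 62551636 to 62552494. The high peak of chromosome 18 (score 96.25) matched a count of 16 at 1.17 times the common rate, and that of chromosome 6 (131.08) a count of 26 at 1.35 times. These differences were not tested.

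Among the members, 24 combinations of width and score occurred more than once.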
